A study of Mus musculus with 9 samples.

Results

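Reln, Trp73, Lhx1, Lhx5, Calb2, Ebf2, Ebf3 and Nhlh2 are 8 genes used to recognise Cajal-Retzius cells and other early neurons of the preplate, and they were taken by symbol from count tables that list 34590 genes. All 8 symbols were found, and all 8 were among the 17182 genes kept by the filter on low counts. The tables come from total RNA of dissected mouse telencephalon at stage E12.5. There were 5 wild-type (WT) embryos and 4 embryos labelled as Lats1 and Lats2 double knockouts (dKO), all of mixed strain background and with no treatment named. The labels name neither the Cre driver nor the deleted exons, nor whether embryos shared a litter. The p-values set the difference between WT and dKO against the spread between embryos of a group. They treat the 9 embryos as independent, which the labels do not settle. LATS1 and LATS2 are the kinases of the Hippo pathway that phosphorylate YAP and TAZ and keep these coactivators of TEAD transcription factors out of the nucleus. Tissue was dissociated, cells were counted, and ERCC spike-in RNA was added in proportion to cell number before extraction, so a count per spike-in count is a level per counted cell.

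The preplate is the first layer of neurons in the cortex and is later split into the marginal zone above and the subplate below. Cajal-Retzius cells lie at its surface. They are born at the edges of the pallium, in the cortical hem, the septum and the pallial-subpallial boundary, and they spread tangentially over the cortex. They secrete reelin, the product of Reln, which binds the receptors VLDLR and APOER2 (gene Lrp8) on migrating neurons and leads to phosphorylation of the adaptor DAB1. Trp73 encodes p73, a member of the p53 family that is found in Cajal-Retzius cells of the hem and septum. Lhx1 and Lhx5 encode LIM homeodomain factors, Ebf2 and Ebf3 encode COE family factors, Nhlh2 encodes a basic helix-loop-helix factor of young neurons, and Calb2 encodes the calcium-binding protein calretinin. Most of these genes are not restricted to Cajal-Retzius cells: Lhx1, Lhx5, Ebf2, Ebf3, Calb2 and Nhlh2 are also used in the diencephalon or in other newborn neurons.

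RefSeq promoter sequences of the GRCm38.p6 build were matched by symbol for 5 of the 8 genes. The 250 bases before each start are shown for Reln, the gene that was lower in WT 1 and WT 5 than in the other WT libraries, for both starts of Trp73, which count tables by gene do not separate, and for Nhlh2, the gene whose libraries did not overlap between groups per spike-in count. All run 5′ to 3′ on the strand of the gene, and capitals mark matches to the motifs named after them. The Reln window is chr5:22344706-22344955 on the minus strand, the Trp73 windows are chr4:154139876-154140125 (upstream start) and chr4:154097174-154097423 (downstream start) on the minus strand, and the Nhlh2 window is chr3:102009895-102010144 on the plus strand.
Reln: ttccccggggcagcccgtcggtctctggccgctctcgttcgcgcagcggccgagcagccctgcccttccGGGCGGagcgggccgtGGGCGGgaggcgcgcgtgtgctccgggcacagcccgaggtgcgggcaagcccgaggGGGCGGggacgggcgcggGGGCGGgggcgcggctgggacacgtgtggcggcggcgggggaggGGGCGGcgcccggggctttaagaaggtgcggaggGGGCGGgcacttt
Trp73 upstream start: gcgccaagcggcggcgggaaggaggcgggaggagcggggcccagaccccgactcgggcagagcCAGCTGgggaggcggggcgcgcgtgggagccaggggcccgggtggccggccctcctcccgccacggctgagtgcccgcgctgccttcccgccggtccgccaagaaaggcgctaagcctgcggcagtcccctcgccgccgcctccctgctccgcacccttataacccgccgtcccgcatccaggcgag
Trp73 downstream start: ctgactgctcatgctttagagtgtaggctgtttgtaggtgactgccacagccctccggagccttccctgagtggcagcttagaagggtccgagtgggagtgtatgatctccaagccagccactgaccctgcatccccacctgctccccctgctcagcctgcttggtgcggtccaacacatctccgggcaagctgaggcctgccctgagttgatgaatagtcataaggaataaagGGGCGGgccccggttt
Nhlh2: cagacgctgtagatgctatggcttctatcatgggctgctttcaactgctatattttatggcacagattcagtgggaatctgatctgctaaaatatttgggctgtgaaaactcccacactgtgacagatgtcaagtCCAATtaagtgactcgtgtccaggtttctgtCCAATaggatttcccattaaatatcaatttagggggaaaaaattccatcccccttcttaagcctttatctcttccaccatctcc
The Reln capitals are 6 matches to the GC box GGGCGG, and the downstream Trp73 start has 1. The upstream Trp73 start has 1 match to the E-box CAGCTG, and Nhlh2 has 2 matches to CCAAT. The Reln window is 80% G or C and the Nhlh2 window 42%, against a median of 52.4% over all windows. Both strands were searched, and no 2 of these motifs overlapped in the sequences shown. Of 32851 mouse windows of the same length, 32.7% hold GGGCGG, 13% hold CAGCTG and 33.8% hold CCAAT. The TEAD motif GGAATG was in 0 of the 6 windows of the 5 genes and in 12.6% of all windows. The EBF palindrome (0.779% of all windows) and the LIM homeodomain motif TAATTA (4.84%) were also in 0 of 6. These letters were looked for in these windows alone, and the counts below were made on the older mm9 build.

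Depth was 12906561 to 45803152 gene counts per library, and the members' counts ranged from 48 (Lhx1 in dKO 4) to 17351 (Reln in WT 2). The dKO libraries held 71.1 to 83.7 gene counts per spike-in count, against 49.9 to 63.5 in the WT libraries. Lats1 was lower in all 4 dKO libraries, at 59.8 ± 1.07 CPM (counts scaled to a common library size with TMM factors; SD, n = 4) against 132 ± 4.55 (SD, n = 5). Lats2 was higher, at 43.4 ± 9.46 against 27.0 ± 6.18 (not passed without WT 2, WT 3 and WT 4, edgeR adjusted p = 0.218), and checks no label here because the deleted exons are not given. The 8 telencephalic marker genes summed to 628 to 666 CPM in WT and 553 to 580 in dKO libraries, and none of the 8 was below 5.25 CPM in any library. Libraries WT 2, WT 3 and WT 4 stand apart from the rest: 39.3% to 41.3% of their reads fell in no gene, against 32.0% to 35.6% in the remaining 6 libraries. These 3 are all WT, so the property and the genotype overlap in part, and calls are given with and without them.

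Per kilobase of exon (GENCODE M21 exon lengths), the genes kept the same order of mean level in both groups. Reln was highest, at 19 ± 2.58 CPM per kb in WT and 14.2 ± 1.84 in dKO libraries. Calb2 (9.49 ± 1.36 in WT, 9.63 ± 1.00 in dKO) and Nhlh2 (8.54 ± 1.33 and 9.46 ± 0.756) followed, and their libraries overlapped. Lhx5 was at 5.26 ± 2.11 in WT, Ebf2 at 3.97 ± 0.890 and Trp73 at 3.65 ± 0.362, and each of these overlapped its neighbour in the WT order. Ebf3 was at 2.48 ± 0.408 and Lhx1, the lowest, at 0.938 ± 0.372, and in WT both were clear of the genes next to them. Reads of a bulk tissue cannot tell fewer cells of a type from less RNA in each.

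Relative to all genes, Reln fell in the dKO libraries and was the single gene of the 8 that changed. Its CPM was 355, 493, 482, 500.2 and 426 in WT 1 to WT 5 and 356, 279, 328 and 381 in dKO 1 to dKO 4. WT 1 lay inside the dKO range, and the other 4 WT libraries lay above every dKO library. The log2 fold change, dKO over WT, was −0.43 ± 0.11 (SE; 95% interval −0.67 to −0.19; edgeR quasi-likelihood test, Benjamini-Hochberg adjusted p = 0.0147). In the exact two-sided permutation test of Reln over the 126 ways to assign 9 libraries to 5 and 4, p was 0.0317, or 0.104 after adjustment over all genes tested. Without WT 2, WT 3 and WT 4 the log2 fold change of Reln was −0.23 ± 0.12 and no longer passed (edgeR adjusted p = 0.320). Across the tested genes, 12.0% fell and 13.7% rose relative to all genes, so 1 of 8 lower and 0 of 8 higher is near or under the background share. Groups that do not overlap on this scale were seen for 0 of the 8, where 12.6% of all genes were wholly higher and 9.74% wholly lower.

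Per spike-in count, Reln did not differ detectably between the genotypes. The level was 19.2, 24.5, 30.7, 30.5 and 26.6 counts per 1000 spike-in counts in WT 1 to WT 5, and 24.9, 23.6, 25.8 and 31.4 in dKO 1 to dKO 4. The WT and dKO libraries overlapped almost fully. The log2 fold change was 0.00 ± 0.12, with a 95% interval of −0.24 to 0.25 (edgeR adjusted p = 0.978), while the median of all tested genes was 0.43. Set against the summed reads of 24 pan-neuronal genes in place of all genes, Reln had a log2 fold change of −0.11 ± 0.08 (edgeR adjusted p = 0.283).

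**Figure D1:**
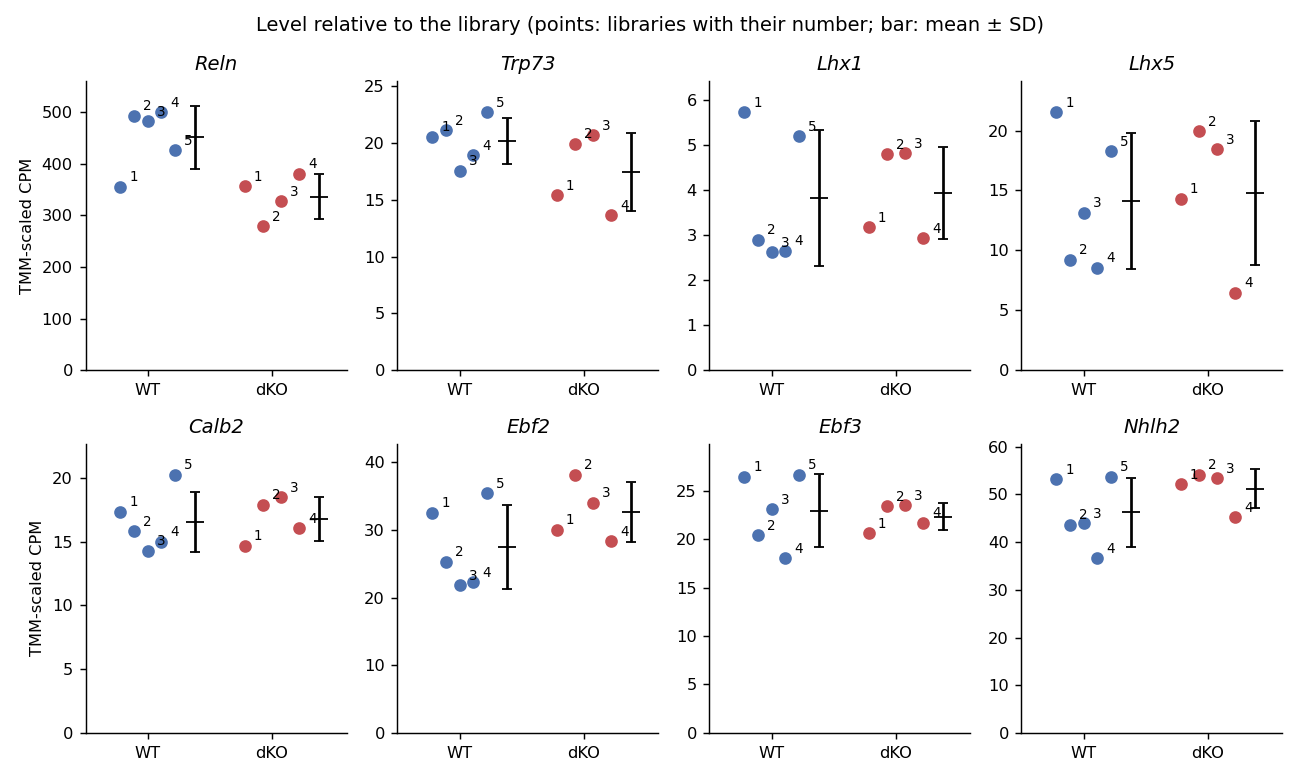
TMM-scaled CPM of the 8 genes in each library (y axis, linear from 0; points with library numbers; bars are mean ± SD of 5 WT and 4 dKO libraries). In the panels of Lhx1, Lhx5, Calb2, Ebf2, Ebf3 and Nhlh2, WT 1 and WT 5 lie above WT 2, WT 3 and WT 4, and in that of Reln they lie below.

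Trp73, the marker of hem and septum-derived cells, passed under none of the 3 scalings. Its CPM was 20.6, 21.1, 17.6, 18.9 and 22.7 in WT 1 to WT 5 and 15.4, 20.0, 20.7 and 13.7 in dKO 1 to dKO 4. The dKO libraries straddled the lower end of the WT range. Below every WT library were dKO 1 and dKO 4, and dKO 2 and dKO 3 lay within the range. The log2 fold change of Trp73 was −0.20 ± 0.12 relative to all genes (edgeR adjusted p = 0.244), with a 95% interval of −0.47 to 0.06. Per spike-in count it was 0.23 ± 0.14, with an interval of −0.05 to 0.52 (edgeR adjusted p = 0.140). Its paralogue Trp53, which encodes p53, was at 0.02 ± 0.06 relative to all genes (edgeR adjusted p = 0.852).

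Of the neuronal transcription factors, Nhlh2 and Ebf2 rose most per spike-in count. Nhlh2 stood at 2.89, 2.17, 2.80, 2.24 and 3.35 counts per 1000 spike-in counts in WT 1 to WT 5, and at 3.65, 4.57, 4.20 and 3.73 in dKO 1 to dKO 4. It was the single gene of the 8 with every dKO library above every WT library, where 48.4% of all tested genes have that pattern and 0.134% the reverse. The log2 fold change of Nhlh2 per spike-in count was 0.59 ± 0.13 (edgeR adjusted p = 0.000317), and the exact permutation p was 0.0159, or 0.0326 after adjustment over all genes. Ebf2 was at 1.76, 1.26, 1.39, 1.36 and 2.21 counts per 1000 spike-in counts in the WT libraries and at 2.10, 3.22, 2.68 and 2.33 in the dKO libraries. WT 5 alone reached into the dKO range of Ebf2. Its log2 fold change was 0.69 ± 0.15 (edgeR adjusted p = 0.000226; exact permutation p = 0.0238, or 0.0448 after adjustment over all genes).

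Calb2, Ebf3 and Lhx5 also rose per spike-in count, by log2 fold changes of 0.46 ± 0.14, 0.40 ± 0.14 and 0.52 ± 0.23 (edgeR adjusted p = 0.00571, 0.0136 and 0.0443). In the exact permutation test, p adjusted over all genes was 0.0786 for Calb2 and for Ebf3 and 0.396 for Lhx5. Lhx1, at 0.51 ± 0.24, missed the threshold (edgeR adjusted p = 0.0596). In all, 5 of 8 genes were called higher and 0 lower per spike-in count. Of all tested genes, 61.1% were called higher and 0.698% lower, and the median log2 fold change was 0.49 for the 8 genes and 0.43 for all genes, so the share of the 8 is near the background. Without WT 2, WT 3 and WT 4, the count went from 5 to 1, Nhlh2 (log2 fold change 0.37 ± 0.16, edgeR adjusted p = 0.0453), where 48.2% of all genes were still called higher. Leaving out WT 2 alone left 3 of 8 called, where 55.1% of all genes were called higher, and the call of Lhx5 was lost in DESeq2 (adjusted p = 0.307) and without WT 2, WT 4, dKO 2 or dKO 3.

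**Figure D2:**
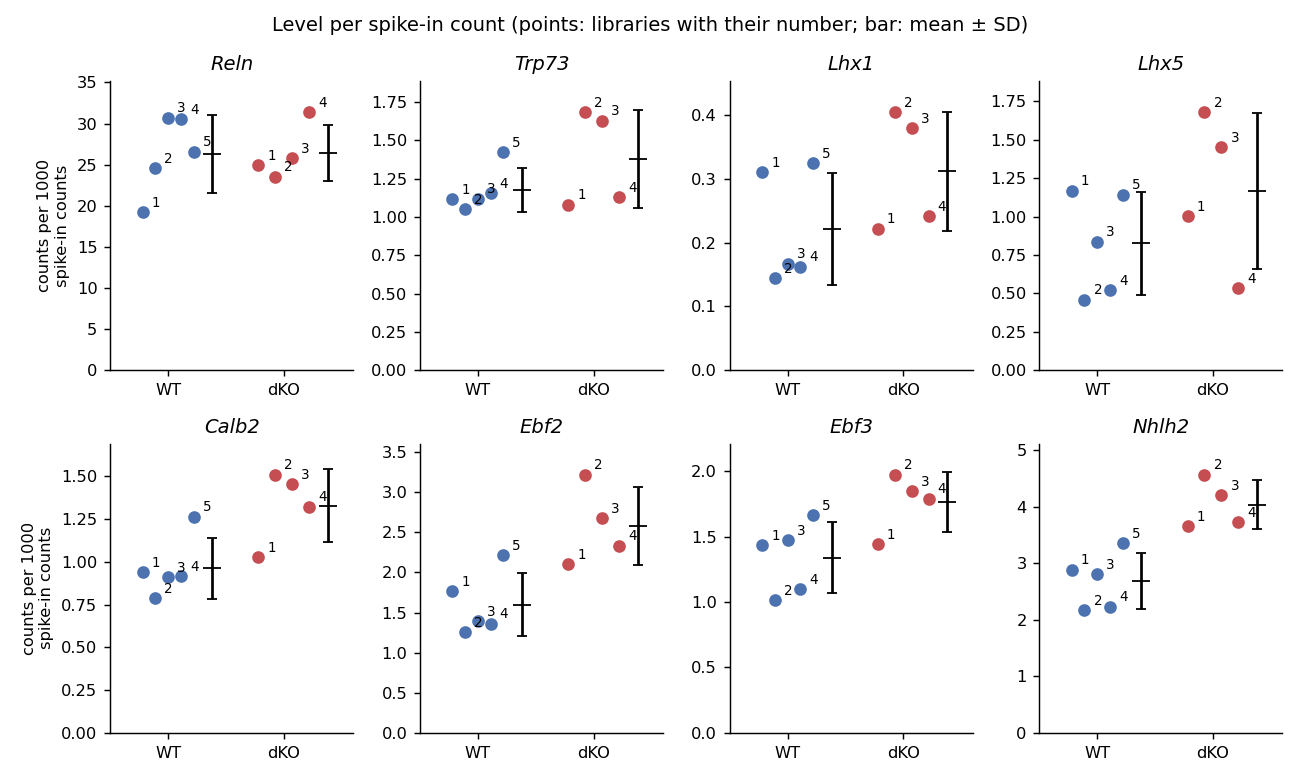
Counts of the 8 genes per 1000 ERCC spike-in counts in each library (y axis, linear from 0; points with library numbers; bars are mean ± SD of 5 WT and 4 dKO libraries). Nhlh2 is the one panel where all 4 dKO libraries, 3.65 to 4.57, lie above all 5 WT libraries, 2.17 to 3.35.

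Relative to all genes, none of these 6 neuronal genes passed in either direction. Ebf2 had the largest log2 fold change of them, 0.26 ± 0.15 (edgeR adjusted p = 0.236), with a 95% interval of −0.07 to 0.58. Nhlh2 followed at 0.15 ± 0.11 (adjusted p = 0.318), and its CPM of 53.3, 43.7, 43.9, 36.6 and 53.7 in WT libraries overlapped 52.2, 54.1, 53.4 and 45.2 in dKO libraries. Calb2 (0.02 ± 0.11), Ebf3 (−0.03 ± 0.11), Lhx1 (0.08 ± 0.27) and Lhx5 (0.11 ± 0.32) were closer to 0 than Nhlh2, although the intervals of Lhx1 (−0.52 to 0.68) and Lhx5 (−0.59 to 0.82) leave room for changes of either sign. Against the pan-neuronal genes, Ebf2 (0.56 ± 0.17, edgeR adjusted p = 0.0145), Nhlh2 (0.46 ± 0.13, 0.0103) and Calb2 (0.33 ± 0.13, 0.0456) were called higher, 3 of 8 where 53.0% of all genes were and 1.65% were called lower. On this scale 0 of the 8 had groups that did not overlap, against 38.2% of all genes higher and 0.786% lower. In edgeR, leaving out WT 2, WT 3 and WT 4 left 0 of 8 called, and 0 at an unadjusted p under 0.05, where 13.6% of all genes were called higher and 0.257% lower, and leaving out dKO 2 left 1, where 42.7% were. The pan-neuronal genes themselves fell relative to all genes in 15 of 24 cases and rose in 0, with a median log2 fold change of −0.30, where 12.0% of all genes fell. Without WT 2, WT 3 and WT 4, 3 of the 24 fell and the median was −0.21, where 0.972% of all genes fell.

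**Figure D3:**
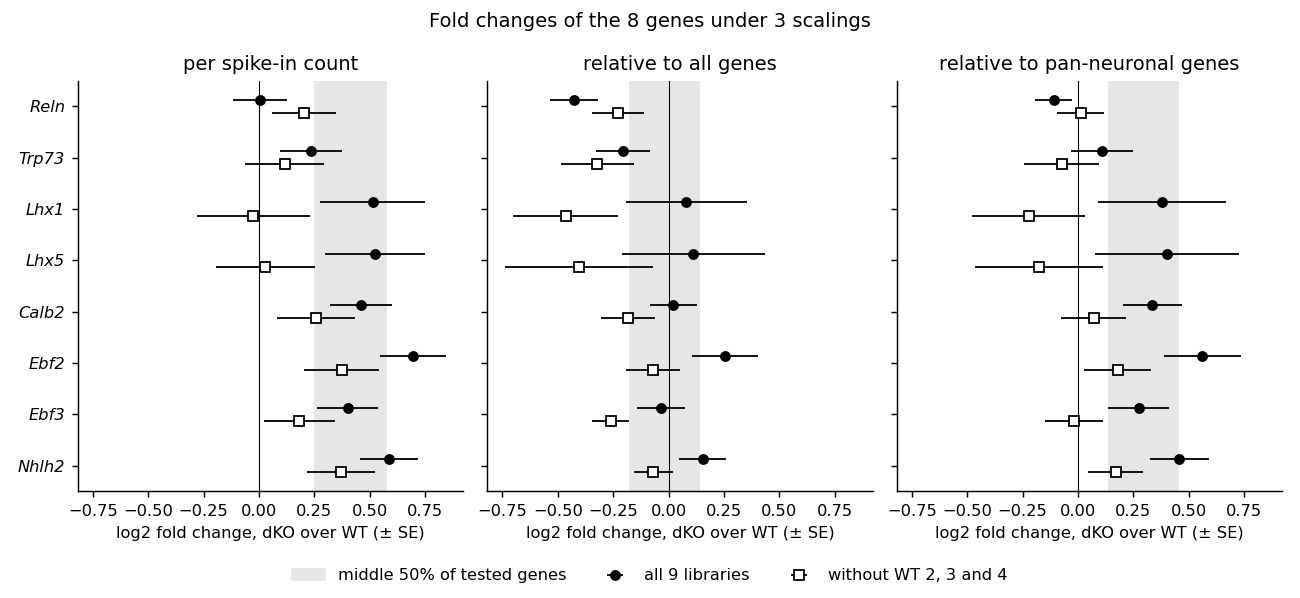
Log2 fold change, dKO over WT, of each gene (x axis; points ± SE) per spike-in count, relative to all genes and relative to pan-neuronal genes, with all 9 libraries (filled circles) and without WT 2, WT 3 and WT 4 (open squares). The grey band holds the middle 50% of tested genes with all 9 libraries. The points of Reln and Trp73 lie to the left of it in all 3 panels. All squares except those of Reln lie left of the filled circles.

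With those 3 WT libraries left out, all 8 genes had log2 fold changes below 0 relative to all genes, from −0.46 (Lhx1) to −0.07, and 0 passed. Their median was −0.25, against −0.01 for all tested genes, of which 2.33% were called higher and 0.972% lower. Ebf3 came nearest to the threshold in that fit, at −0.26 ± 0.08 (edgeR adjusted p = 0.123). At an unadjusted p under 0.05 in edgeR, 1 of the 8 passed. Per spike-in count the median of the 8 was 0.19, against 0.43 for all genes. Only WT 1 and WT 5 represent the WT group in these fits, so the intervals rest on 2 WT embryos.

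All 8 genes varied more among the WT libraries than the median gene of their level, and among the dKO libraries all but Ebf3 did (6.23%, against a median of 6.56%). Lhx5 had a CPM of 21.5, 9.21, 13.1, 8.54 and 18.3 in WT 1 to WT 5 and of 14.3, 19.9, 18.4 and 6.47 in dKO 1 to dKO 4. Its coefficient of variation was 40.1% in WT and 40.8% in dKO libraries, where genes with a mean of 10 to 100 CPM had medians of 5.81% and 6.56%. Lhx1 had a CPM of 5.73, 2.90, 2.62, 2.65 and 5.20 in WT and of 3.17, 4.80, 4.82 and 2.93 in dKO libraries, a variation of 39.7% and 26.0% against 15.9% and 16.7% for genes of 1 to 10 CPM. In both LIM genes WT 1 and WT 5 were high with dKO 2 and dKO 3, and WT 2, WT 4 and dKO 4 were low. Ebf2 followed a similar order, with 32.6, 25.3, 21.8, 22.3 and 35.4 CPM in WT and 30.0, 38.2, 34.0 and 28.3 in dKO libraries. Calb2 ranged from 14.3 to 20.3 CPM and Ebf3 from 18 to 26.7 over the 9 libraries, and both were highest in WT 5.

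The mean of WT 1 and WT 5 over the mean of WT 2, WT 3 and WT 4 puts a size on that split. It was 2.01 for Lhx1, 1.93 for Lhx5, 1.47 for Ebf2, 1.29 for Ebf3 and Nhlh2, 1.25 for Calb2 and 1.13 for Trp73. Reln went the other way, at 0.794. For each of the 7 genes other than Reln, the WT libraries with more reads outside genes had the lower mean level. The part of those reads in the levels was not tested.

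Centred on each gene's own mean of log2(CPM + 0.5) over the 9 libraries, the mean of the 7 genes other than Reln was 0.28, −0.17, −0.18, −0.32 and 0.30 in WT 1 to WT 5. In dKO 1 to dKO 4 it was −0.07, 0.24, 0.21 and −0.28. WT 1, WT 5, dKO 2 and dKO 3 were above 0 for all 7 genes, and dKO 4 was below 0 for all 7. Reln, centred the same way, was at −0.14, 0.33, 0.29, 0.35 and 0.12 in WT and at −0.14, −0.49, −0.26 and −0.05 in dKO libraries. It was lowest in dKO 2, where the other 7 were all above their means.

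**Figure D4:**
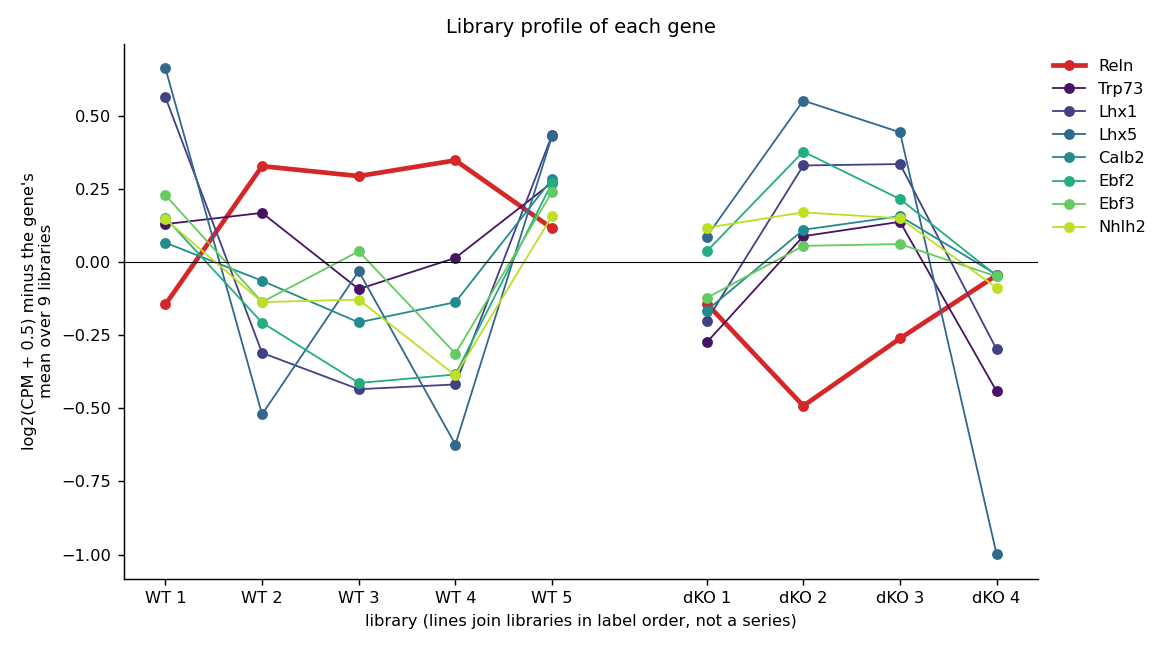
Log2(CPM + 0.5) of each gene minus its mean over the 9 libraries (y axis) in each library (x axis; lines join libraries in label order only). The 7 coloured thin lines lie above 0 together in WT 1, WT 5, dKO 2 and dKO 3, while Reln (thick red) is above 0 in WT 2 to WT 5 and below 0 in the other libraries.

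Ratios of counts within a library do not depend on any scaling. The ratio of Reln to Nhlh2 counts was 6.67, 11.3, 11, 13.7 and 7.93 in WT 1 to WT 5, and 6.82, 5.16, 6.14 and 8.43 in dKO 1 to dKO 4. WT 2, WT 3 and WT 4 lay above every other library, and WT 1 and WT 5 lay within the dKO range. The ratio of Reln to Trp73 counts was 22.6 ± 4.53 in WT and 20.2 ± 6.45 in dKO libraries (SD), and dKO 4, at 27.9, was the highest of the 9. The ratio of Ebf2 to Ebf3 counts, 2 paralogues, was 1.20 ± 0.146 in WT and 1.46 ± 0.134 in dKO libraries (SD), with overlap between 1.30 and 1.33. The ratio of Lhx5 to Lhx1 counts was 3.74 ± 0.752 and 3.67 ± 1.02, and it overlapped broadly.

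By the root mean square difference of the centred profiles over 9 libraries, among 12483 genes with a mean of at least 1 CPM, the 5 genes most like Reln were Enc1 (0.0458), Hecw1 (0.0491), Rab3a (0.0507), Tmem229b (0.0573) and Nsg2 (0.0573). For comparison, the spread of Reln about its own mean was 0.275, and the nearest of the other 7 genes, Trp73, was 0.343 away. Enc1, with 275, 358, 366, 371 and 319 CPM in WT 1 to WT 5 and 275, 227, 255 and 282 in dKO 1 to dKO 4, had the same low value in WT 1 and the same minimum in dKO 2. The 5 genes most like Trp73 were Tcf7 (0.0679), Pgbd5 (0.0759), Dll1 (0.0778), Cntln (0.0854) and Phldb2 (0.0886), against a spread of 0.217 for Trp73 itself. For Lhx5, looked up after its values were seen, the nearest gene was Unc5c, a netrin receptor gene, at 0.109 against a spread of 0.557.

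Of 8 other genes recorded in Cajal-Retzius cells, 5 fell and 1 rose relative to all genes, with a median log2 fold change of −0.32. The shares over all tested genes were 12.0% lower and 13.7% higher. Tbr1, a T-box factor of early cortical neurons, had a log2 fold change of −0.35 ± 0.06 (edgeR adjusted p = 0.00197). Cacna2d2, a calcium channel subunit gene, was at −0.49 ± 0.09 (edgeR adjusted p = 0.00338). The paralogues of 2 of the members fell as well: Nhlh1 at −0.35 ± 0.08 (edgeR adjusted p = 0.00622) and Ebf1 at −0.29 ± 0.08 (edgeR adjusted p = 0.0185). Cxcr4, the receptor for the meningeal chemokine CXCL12 that holds Cajal-Retzius cells at the surface, rose, with 27.4 ± 1.96 CPM in WT and 40.5 ± 8.26 in dKO libraries (log2 fold change 0.56 ± 0.12, edgeR adjusted p = 0.00503). Without WT 2, WT 3 and WT 4, 0 of these 8 genes passed in edgeR relative to all genes, where 2.33% of all genes were called higher and 0.972% lower. At an unadjusted p under 0.05 in that fit, 4 of the 8 were lower and 1 higher. Against the pan-neuronal genes with all 9 libraries, 1 of these 8 other genes rose and 0 fell, with a median of 0.00. Of all genes, 53.0% rose and 1.65% fell on that scale. Scaled by spike-in counts, 3 of these 8 rose and 0 fell, with a median of 0.12. The shares of all genes there were 61.1% higher and 0.698% lower. Per spike-in count, Nhlh1 was at 0.08 and Ebf1 at 0.15, below the all-gene median, where Nhlh2 was at 0.59 and Ebf2 at 0.69; the difference between the paralogues was not tested.

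Both receptor genes of reelin fell on the relative scale. Lrp8 went from 215 ± 26.8 to 164 ± 7.27 CPM (log2 fold change −0.39 ± 0.08, edgeR adjusted p = 0.00528) and Vldlr from 71.9 ± 6.94 to 60.5 ± 6.81 (−0.25 ± 0.09, edgeR adjusted p = 0.0496). Neither passed without WT 2, WT 3 and WT 4 (adjusted p = 0.0943 and 0.595). The adaptor Dab1 did not pass (−0.16 ± 0.13, edgeR adjusted p = 0.397). Neither receptor gene passed per spike-in count (Lrp8 0.05 and Vldlr 0.18, edgeR adjusted p = 0.736 and 0.181). Against the pan-neuronal genes neither passed as well (Lrp8 −0.07 and Vldlr 0.06, edgeR adjusted p = 0.416 and 0.482). Of 24 listed receptors, adaptors, kinases, effectors, degradation factors and proteases of the pathway, 5 rose and 7 fell relative to all genes, with a median of −0.07. Over all tested genes, 13.7% rose and 12.0% fell on this scale. The risers included the adhesion genes Itgb1 (0.33 ± 0.05) and Cdh2 (0.32 ± 0.05) and the small GTPase gene Rap1b (0.44 ± 0.08), which are also expressed in progenitors. Without WT 2, WT 3 and WT 4, 2 of the 24 rose and 1 fell, where 2.33% of all genes rose and 0.972% fell. Itgb1 and Cdh2 still passed in that fit and Rap1b did not (0.29, edgeR adjusted p = 0.104). Per spike-in count, 15 of 24 rose and 0 fell, near the background of 61.1%. The counts were again 15 and 0 without WT 2, WT 3 and WT 4, where 48.2% of all genes were called higher.

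Among 13 tested preplate, subplate and deep-layer genes, 3 rose and 3 fell relative to all genes, where 13.7% of all genes rose and 12.0% fell. The 3 that fell were Tbr1 (log2 fold change −0.35), Bcl11b (−0.55) and Sox5 (−0.64), with edgeR adjusted p of 0.00197, 0.00644 and 0.0185. Bcl11b and Sox5 were chosen for mention after their values were seen. Ctgf, a subplate marker at later stages and a direct target of YAP, rose from 6.14 ± 1.25 to 61.2 ± 28.5 CPM (log2 fold change 3.32 ± 0.28, edgeR adjusted p = 3.66e-05), and it still passed without WT 2, WT 3 and WT 4 (3.08). Lpar1, a lysophosphatidic acid receptor gene, rose with all 9 libraries (0.42 ± 0.07, edgeR adjusted p = 0.00113) but did not pass without those 3 (0.43, edgeR adjusted p = 0.0531). In that fit 1 of the 13 genes rose and 0 fell, where 2.33% of all genes rose and 0.972% fell. Nr4a2, a nuclear receptor gene of subplate neurons, was at 0.11 ± 0.08 (edgeR adjusted p = 0.312).

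The pallial sources of Cajal-Retzius cells were looked at through their progenitor markers. In the hem list, 3 of 13 tested genes rose relative to all genes and 0 fell: the signals Bmp6 (log2 fold change 1.62 ± 0.15), Bmp4 (1.09 ± 0.21) and Wnt5a (0.38 ± 0.08). The background for this list and for the septum and antihem lists was 13.7% of all genes higher and 12.0% lower. Bmp6 and Wnt5a passed without WT 2, WT 3 and WT 4 too, and Bmp4 did not (0.75, edgeR adjusted p = 0.0695). In that fit 2.33% of all genes rose and 0.972% fell. Of 7 septum genes, Fgf17 rose (0.90 ± 0.25, edgeR adjusted p = 0.0223), and of 5 antihem genes Tgfa fell (−0.44 ± 0.14, edgeR adjusted p = 0.0440); neither passed without those libraries. Lhx2, which restricts the hem, was at −0.08 ± 0.04 (edgeR adjusted p = 0.182). The Notch effector Hes1 rose (0.85 ± 0.09, edgeR adjusted p = 0.000165), also without those libraries (0.73, adjusted p = 0.0210). Hes5, another Notch effector, fell (−1.03, edgeR adjusted p = 0.00964) and did not pass without those libraries (−1.27, adjusted p = 0.0651). Hes5 was chosen for mention after its values were seen. Lhx2, Hes1 and Hes5 are on the list of fate regulators. Of its 13 tested genes, 2 rose and 5 fell, where 13.7% of all genes rose and 12.0% fell.

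Markers of neighbouring tissue also varied between the libraries of a genotype. The summed hem list was at 296, 227, 199, 190 and 208 CPM in WT 1 to WT 5 and 225, 331, 310 and 207 in dKO 1 to dKO 4. The septum list was at 442, 316, 324, 266 and 350 CPM in WT and 349, 413, 384 and 258 in dKO libraries. The diencephalon list of 16 genes was at 166, 110, 107, 93.2 and 144 CPM in WT and 132, 157, 145 and 88 in dKO libraries. Each of these 3 sums was high in WT 1, dKO 2 and dKO 3 and low in WT 4 and dKO 4, as Lhx1 and Lhx5 were, while WT 5 was high for septum and diencephalon but not for hem. Their part in the levels of the 8 genes was not tested. Within the diencephalon list, 0 of 11 tested genes passed in edgeR relative to all genes (1 higher at an unadjusted p under 0.05). In that fit 13.7% of all genes were called higher and 12.0% lower. Levels differed widely within it: over the 9 libraries Lhx9 was at 35.9 to 62.2 CPM, Otx2 at 21.5 to 50.1, Tcf7l2 at 11.2 to 17.5, Barhl2 at 5.98 to 13.1 and Sim1 at 3.92 to 20.1, while 7 of the 16 genes, among them Irx1 and Olig3, stayed under 1 CPM in every library. Lhx9, Otx2, Tcf7l2, Barhl2, Sim1 and Olig3 were chosen for mention after their values were seen, and Otx2 is also on the choroid plexus list.

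Choroid plexus markers followed another order, with summed levels of 230, 451, 436, 257 and 119 CPM in WT and 168, 189, 227 and 213 in dKO libraries. The 10 meningeal markers summed to 896 to 1120 CPM in WT and 814 to 1181 in dKO libraries. In edgeR relative to all genes, 0 of 10 passed, where 13.7% of all genes were called higher and 12.0% lower. At an unadjusted p under 0.05, 0 of the 10 meningeal markers passed as well. Markers of the olfactory placode, neural crest and cranial ganglia were low, at 14.1 to 16.3 CPM in WT and 12.1 to 18.4 in dKO libraries. In that list Eya2 was the highest, at 7.65 to 9.71 CPM, and 4 of the 10 genes, Omp among them, stayed under 1 CPM throughout (Eya2 was also chosen after its values were seen). The ventral and GABAergic list fell relative to all genes in 10 of 14 cases, from 692 to 791 CPM in WT to 330 to 532 in dKO libraries, where 12.0% of all genes fell, and in 5 of 14 without WT 2, WT 3 and WT 4, where 0.972% did. The pan-neuronal list summed to 6480 to 7708 CPM in WT and 5474 to 6229 in dKO libraries. What these shifts contribute to the levels of Reln and the other 7 genes was not tested.

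**Figure D5:**
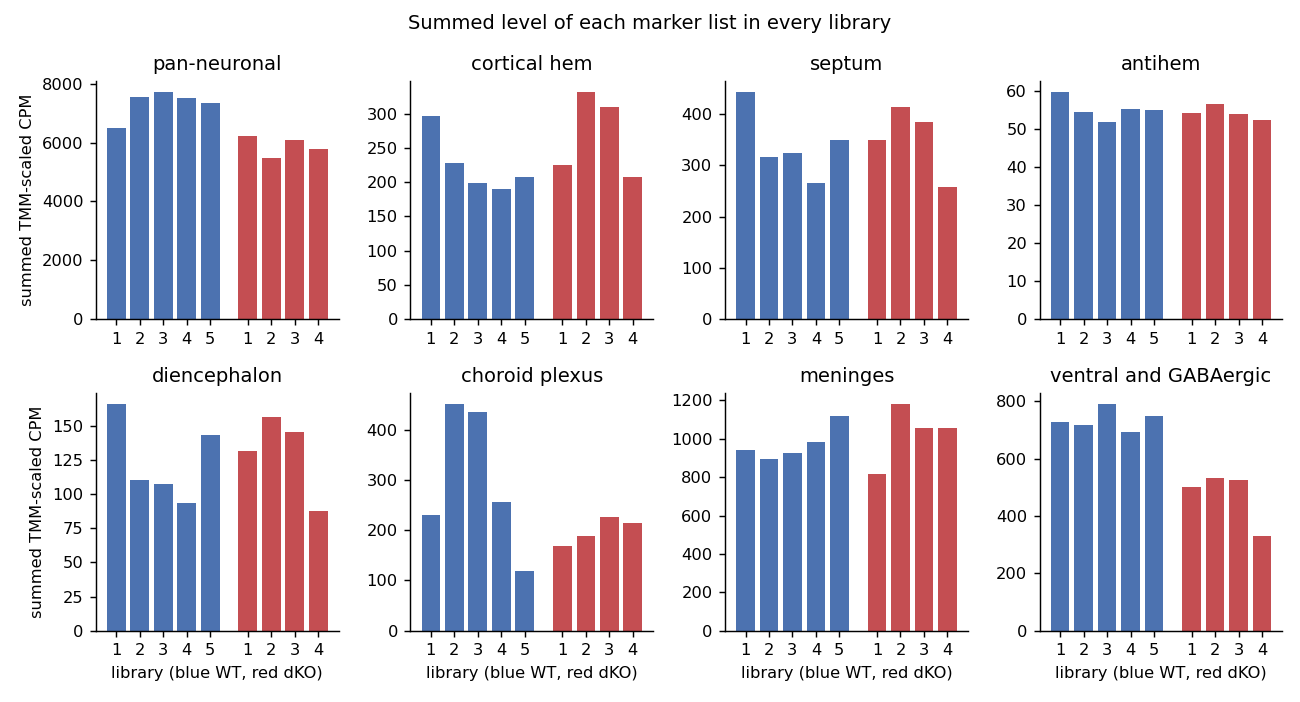
Summed TMM-scaled CPM of 8 marker lists (y axis, linear from 0) in each library (x axis; blue bars WT, red bars dKO). The pan-neuronal and ventral lists are lower in all 4 dKO libraries, and the hem, septum and diencephalon lists vary within both genotypes.

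Antisense genes overlap Reln and Ebf2 in the tables, but Gm10475 had 1 to 7 counts and Gm10860 0 to 5 in a library, against at least 4650 for Reln and 426 for Ebf2. The overlapping antisense genes of Trp73, Lhx5 and Ebf3 in GENCODE M21 were not analysed here, and the strand setting of the counting is not given in the sources used here.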

How the data were processed

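Total RNA from the telencephalon of 5 WT and 4 dKO embryos was sequenced. Per the labels' protocols, ERCC spike-ins were added per counted cell and libraries were made with a stranded total RNA kit from 350 ng of RNA. The deposited values are raw counts per gene and per spike-in, and the submitters' processing notes name STAR, HTSeq and the mm9 build. No source used here gives versions, annotation or strand setting. No 2 libraries held identical counts. Counter rows that name no gene stayed out of library sizes, and 32.0% to 41.3% of reads fell in no gene.

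Genes kept by filterByExpr (17182) were tested with edgeR 4.0.16 in R 4.3.3 (quasi-likelihood test, Benjamini-Hochberg over all tested genes, threshold 0.05). The library size was the spike-in total (per cell), the gene total with TMM factors (relative), or the summed counts of 24 pan-neuronal genes. The procedure was tested on simulated data. CPM values are TMM-scaled, with 0.5 added on the log2 scale. Exact permutation tests were two-sided over 126 assignments, so p cannot go below 0.00794. Alternatives were DESeq2 1.42.0, limma 3.58.1 (voom), other filters, scalings and left-out libraries. The share of reads in no gene as a covariate was added after seeing the data. Embryos with the same number did not deviate together (correlations −0.15, −0.13, −0.26 and 0.14 for numbers 1 to 4), so the numbers were not taken to pair them.

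The 8 genes and the other lists were chosen with earlier results of these data known. The lists were 8 other Cajal-Retzius genes, reelin signalling, preplate and subplate, hem, antihem, septum, fate regulators, paralogues of the 8, pan-neuronal, ventral and GABAergic, diencephalon, choroid plexus, meninges, placode and ganglia, and telencephalon. Named from each were the 3 genes with the smallest adjusted p in the relative fit (2 from lists under 8 genes), or fewer in the text, plus genes the text says were chosen after their values were seen, and Vldlr, Lrp8, Dab1, Lhx2, Tbr1, Cxcr4, Nr4a2, Ebf1, Nhlh1 and Trp53. Some genes of the lists are not reported here by name. Relative to all genes, 2 of 13 fate regulators rose and 5 fell, 4 of 12 paralogues fell and 0 rose, 1 of 9 choroid plexus genes fell, 0 of 7 placode genes changed and 4 of 8 telencephalic genes fell (all genes: 13.7% rose, 12.0% fell). Without WT 2, WT 3 and WT 4, 1 fate regulator rose, 1 telencephalic gene fell and 0 changed in the other 3 lists (all genes: 2.33% rose, 0.972% fell).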

Additional observations from a re-analysis of the deposited data

Results flagged for a closer look

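Trp73 in WT 5 stood apart from the other WT libraries per spike-in count. Its level there was 1.42 counts per 1000 spike-in counts, against 1.05 to 1.16 in WT 1 to WT 4, and the gap to the nearest library made up 0.716 of the range of the group. It was the 1 such value among 32 groups of values looked at, and chance gives about 1 in 20. Relative to all genes, WT 5 was also the highest WT library for Trp73, at 22.7 CPM against 21.1 in WT 2.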

How the results depend on the processing

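Of 424 values of single genes under other settings, 344 kept their direction and side of the threshold, 29 fell below it, 10 passed it and 41 changed sign. Without WT 2, 3 and 4, the number of the 8 genes called was 1 per cell, 0 relative to all genes and 0 relative to pan-neuronal genes, and with the share of reads in no gene as a covariate it was 2 (53.5% of all genes higher), 0 (5.76% higher, 4.30% lower) and 0 (30.5% higher). With single libraries left out, the counts ranged from 3 to 7 (50.7% to 65.9% of all genes higher), stayed at 1 (8.10% to 12.7% lower), and ranged from 1 to 4 (42.7% to 59.5% higher). Per cell, the log2 fold change of Lhx1 was −0.026 without WT 2, 3 and 4, and that of Reln was −0.0027 with TMM over spike-ins and −0.089 to 0.066 with single libraries left out. Relative to all genes without WT 2, 3 and 4, it was −0.46 for Lhx1, −0.40 for Lhx5, −0.18 for Calb2, −0.069 for Ebf2 and −0.069 for Nhlh2. With the covariate these were −0.28, −0.24, −0.12, −0.010 and −0.032. With single libraries left out, the relative values ranged from −0.031 to 0.25 for Lhx1, −0.047 to 0.35 for Lhx5, −0.028 to 0.11 for Calb2 and −0.10 to 0.031 for Ebf3. Relative to pan-neuronal genes without WT 2, 3 and 4, the values were 0.013 for Reln, −0.074 for Trp73, −0.22 for Lhx1, −0.18 for Lhx5 and −0.018 for Ebf3. With the covariate they were −0.013 for Trp73, −0.034 for Lhx1 and −0.0026 for Lhx5, and Trp73 ranged from −0.0026 to 0.19 with single libraries left out. The cause was not tested. The fall of Reln relative to all genes passed in all settings but 2, with −0.49 to −0.35 when single libraries were left out. It did not pass without WT 2, 3 and 4 (−0.23) or with the covariate (−0.27, edgeR adjusted p = 0.185).

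With a replicate block on numbers 1 to 4, which the labels do not tie to litters, 6, 1 and 3 of the 8 genes were called (61.4% of all genes higher, 9.46% lower and 40.8% higher on those scales), and Ebf3 relative to all genes was 0.033. Depth limits Lhx1 most, with 48 to 203 counts per library. The 9 embryos carry 3 WT libraries with more reads outside genes, and no dKO library of that kind was analysed here.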
